A study of Arabidopsis thaliana with 6 samples.

Results

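SQUAMOSA PROMOTER BINDING PROTEIN-LIKE (SPL) genes were examined in nuclei of hybrid Arabidopsis thaliana endosperm. Members were taken by locus identifier from the table of gene RPKM values (reads per unit of gene length and of library size), and 10 of its 33602 loci belong to the group. They are SPL3 (AT2G33810), SPL4 (AT1G53160), SPL5 (AT3G15270), SPL9 (AT2G42200), SPL15 (AT3G57920), SPL2 (AT5G43270), SPL10 (AT1G27370), SPL11 (AT1G27360), SPL6 (AT1G69170) and SPL13A (AT5G50570), and all 10 were found. Another 7 SPL genes were used for comparison. The genes were selected on the RPKM values of these same libraries, in that results of the contrast between the crosses were known when they were chosen, so their levels and differences are given as descriptions. No p-value is given for a member, and counts of members past a threshold support nothing.

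SPL proteins are plant transcription factors with a conserved DNA-binding domain that recognises a GTAC core. In Arabidopsis one branch of the family carries a site complementary to the microRNA miR156, which lowers their output in juvenile plants and, as its level falls with age, lets them promote adult leaves and flowering. SPL9 and SPL15 switch on MIR172 genes, and miR172 in turn represses AP2-like repressors of flowering. In the young embryo miR156 keeps SPL10 and SPL11 low, and without that restraint genes of seed maturation are expressed too early.

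Endosperm, the tissue that nourishes the embryo, was collected 4 days after pollination, and its nuclei were purified by INTACT, a method that pulls down nuclei carrying a tagged envelope protein. The cross Cm x L had a tagged Columbia-0 line called TEmob (Cm) as mother and Landsberg erecta (Ler, L) as father, while in L x Cm a Ler plant with the pistillata mutation pi-1, which lacks stamens, was the mother and TEmob the father. Each cross had 3 libraries. TEmob is a single line. Its founder seeds were exposed to α-amanitin, to zebularine (40 µM), an inhibitor of DNA methylation, and to 37 °C, and the line was then passed through a haploid made with a CENH3-TAILSWAP plant and doubled with colchicine. Both crosses carry a TEmob parent, and endosperm of the Columbia line without that history was not analysed here. The promoter of the nuclear tag is not given in the sources used here. Direction of the cross also sets which accession gave the larger maternal dose and which parent carried the tag, and these cannot be told apart.

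Library totals recovered from the values were 21.2 to 29.2 M reads. Pearson's r between libraries, as a description over tested loci, was 0.903 to 0.977 within a cross and 0.831 to 0.883 between crosses. Cm x L replicate 3 stood apart at the low end, with 10084 loci listed at 0 against 1005 to 5036 in the other 5 libraries. Loci of low level were mostly lower in Cm x L: of loci with a mean of 1 to under 5 RPKM, 33.2% were called lower and 0.465% higher, and from 5 to under 20 RPKM the shares were 13.4% and 6.35%. Calls are those of limma on log2(RPKM + 1) at an adjusted p of 0.05. The labels do not say whether libraries came from separate plants, so the spread between them may be technical.

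The tissue labels were set beside marker lists. All 8 endosperm markers were detected in every library, with summed levels of 457 to 459 RPKM in Cm x L and 498 to 558 in L x Cm. Single markers were less even than these sums, with 2 called lower in Cm x L (MINI3 and IKU2) and 2 higher (HDG3 and FIS2). Of 11 embryo markers 7 were called lower in Cm x L and 1 higher, with sums of 146 to 330 and 167 to 185 RPKM. In Cm x L most of the sum came from LEC1 (157, 151 and 69.5 RPKM) and WOX8 (165, 117 and 66.2 RPKM). No other embryo marker exceeded 4.01 RPKM in that cross, whereas STM had 12.4 to 25.0 and WOX9 14.9 to 28.0 RPKM in L x Cm. Only loci averaging at least 1 RPKM were tested. The called CUC3, PLT1, PLT2 and DRN passed this filter only through L x Cm, so their calls support nothing. CUC3 and WOX2 were at 0 in Cm x L replicate 3, PLT2 in replicate 1 and DRN in both of these. Pollen markers summed to 61.7 to 731 RPKM in Cm x L and 784 to 2990 in L x Cm, with 3 of 7 called lower, and MGH3 and DUO1 were at 0 in Cm x L replicate 3. DUO1, called lower, also passed the filter only through L x Cm. Of 11 seed coat markers 1 was called lower in Cm x L, with sums of 370 to 1420 and 925 to 1580 RPKM, and of 5 leaf markers 1 was called higher, with sums of 2580 to 3370 and 1560 to 1790 RPKM. Beside these counts, 18.3% of all tested loci were called lower in Cm x L and 6.73% higher. Of those of 1 to under 5 RPKM, 33.2% were called lower. The part of these tissues in the SPL values was not tested.

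The sequence that unites the members is their site for miR156. The mature microRNAs of the family are shown first, 5′ to 3′ and as RNA, with bases 2 to 8 (the seed) in capitals. miR156a-5p stands for the identical products of MIR156A to MIR156F.
miR156a-5p: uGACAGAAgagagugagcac
miR156g: cGACAGAAgagagugagcac
miR156h: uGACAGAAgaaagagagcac
miR157d: uGACAGAAgauagagagcac
miR157a-5p: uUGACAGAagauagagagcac
The first 4 share the seed GACAGAA. miR157a-5p, identical to the b and c forms, has an extra base at its start, so that the same run of letters sits 1 base further in. All were read from the RefSeq genome and annotation of TAIR10.1.

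Transcripts of all protein-coding nuclear loci were then scanned for the best ungapped match to the complement of miR156a-5p. A stretch with at most 3 bases outside Watson-Crick pairing was present in 13 of 27440 loci (0.0474%). They were the 10 members, SPL13B and 2 loci outside the family, AT3G28690 and AT3G47170. The sites are shown because they divide the members into groups, with bases that do not pair with miR156a-5p in capitals.
SPL9: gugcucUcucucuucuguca
SPL4: CugcucUcucucuucuguca
SPL5: CCgcucUcucucuucuguca
SPL3: UugcuUacucucuucuguca
The SPL9 sequence was also that of SPL2, SPL6, SPL10, SPL11, SPL13A, SPL13B and SPL15. In these 8 genes 1 base did not pair, opposite base 14 of the microRNA, counted from its 5′ end. In SPL4 2 bases did not pair (opposite bases 20 and 14), in SPL5 3 (20, 19 and 14) and in SPL3 2 (20 and 15), the second of which can form a G:U pair. The last 13 bases were the same in all 11 sites, so the stretch opposite the seed was fully complementary throughout. In the other 6 SPL genes the best match left 6 to 8 bases unpaired.

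The sites of SPL3 (chr2:14305878-14305897, plus strand), SPL4 (chr1:19807090-19807109, plus) and SPL5 (chr3:5140598-5140617, minus) lay in the 3′ UTR, with 49, 9 and 6 bases between the coding sequence and the site. Those of SPL9 (chr2:17589066-17589085, plus), SPL15 (chr3:21444834-21444853, minus), SPL2 (chr5:17360758-17360777, minus) and SPL10 (chr1:9505541-9505560, minus) lay in coding exons. So did those of SPL11 (chr1:9503618-9503637, plus), SPL6 (chr1:26006731-26006750, plus) and SPL13A (chr5:20582738-20582757, minus). Coordinates are those of TAIR10.1.

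**Figure D1:**
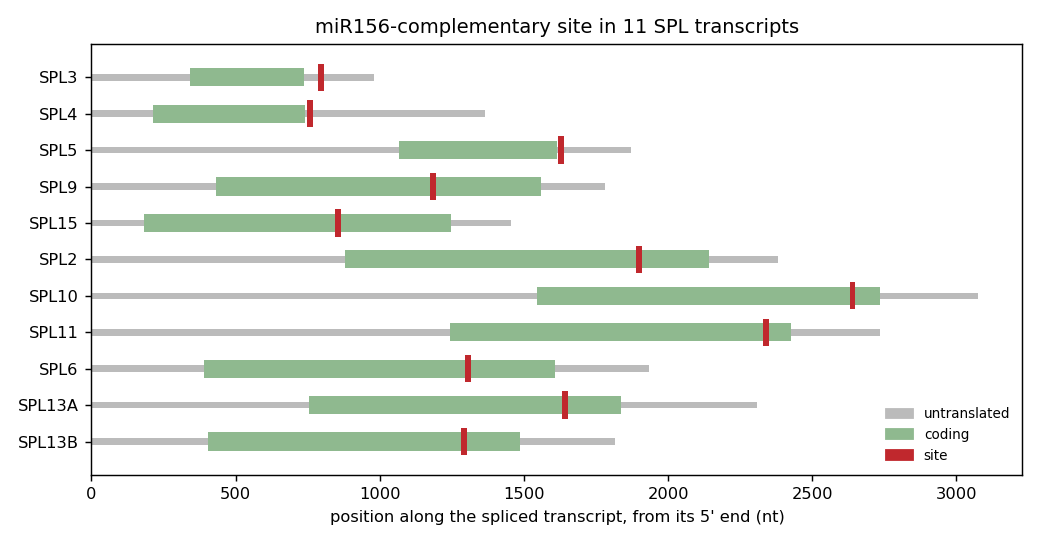
Position of the miR156-complementary site (red) along the spliced transcripts of the 10 SPL genes and SPL13B, in nucleotides from the 5′ end, with coding sequence in green and untranslated sequence in grey. The site follows the coding sequence in SPL3, SPL4 and SPL5 and lies inside it in the other 8.

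Levels of the 10 genes were modest, and their order depended on the cross. In Cm x L the highest were SPL10 (21.1 ± 1.78 RPKM, mean ± SD, n = 3) and SPL11 (14.6 to 15.6 RPKM), and the lowest was SPL9 (0.280 ± 0.283). In L x Cm SPL4 came first (23.6 ± 0.693 RPKM), above SPL11 (14.3 ± 2.26) and SPL10 (13.5 ± 2.85), and SPL5 came last (2.71 ± 3.33). Ranges of neighbours in the Cm x L order did not overlap between SPL10 and SPL11, SPL11 and SPL3, SPL6 and SPL4, SPL5 and SPL13A, or SPL13A and SPL9. In the L x Cm order this held only between SPL4 and SPL11 and between SPL6 and SPL15, and the other neighbours did not differ beyond their spread. RPKM is per gene length, which allows levels of different genes to be set side by side. The places of SPL3, SPL15, SPL5 and SPL13A in both orders are uncertain, because their reads may be mixed with those of overlapping or copied genes, as described with each of them. SPL4 shares 14.4% of its exon bases with a microRNA locus on the opposite strand, AT1G07867, which has no RPKM value here. Opposite-strand overlaps of SPL13A, SPL9 and SPL6 cover 3.87%, 3.82% and 0.982% of exon bases.

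The 10 members summed to 58.1 to 77.2 RPKM in Cm x L and 85.6 to 95.5 RPKM in L x Cm. SPL10 and SPL11 together made up 54.2 ± 4.32% of the Cm x L sum and 30.9 ± 4.41% of the L x Cm sum. SPL4 made up 6.94 ± 0.91% and 26.1 ± 0.666%. In each of these 3 measures the ranges of the crosses were separate.

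**Figure D2:**
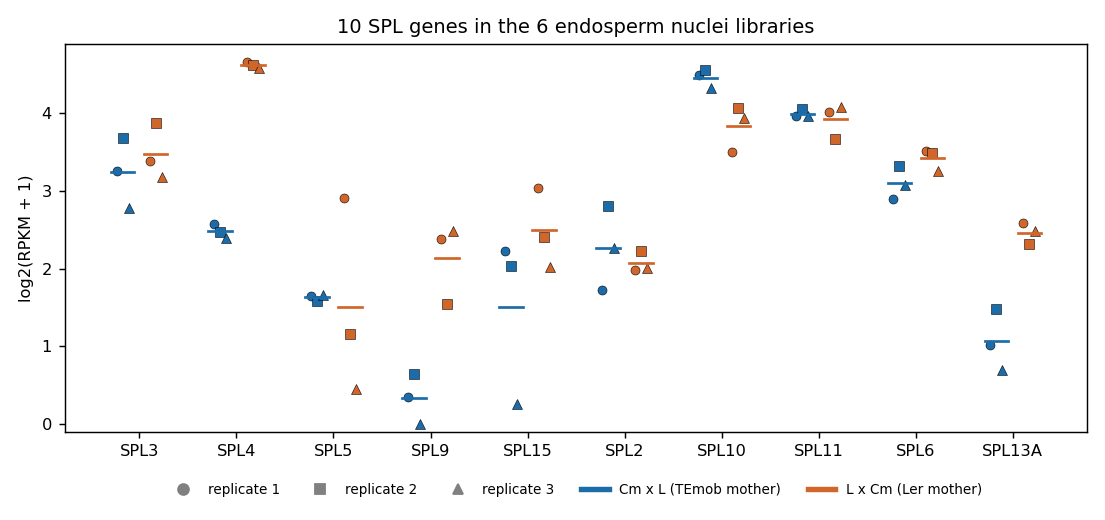
Level of each of the 10 SPL genes in each library as log2(RPKM + 1), with Cm x L in blue, L x Cm in orange, symbols for replicates and a line at the mean of the 3 libraries of a cross. SPL4, SPL9 and SPL13A are lower in every Cm x L library than in any L x Cm library, SPL10 is higher, and the crosses overlap in the other 6.

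Differences between crosses are given as Cm x L minus L x Cm on the log2(RPKM + 1) scale, which understates the change of low genes. In the fit over the 26620 loci that averaged 1 RPKM or more, all 10 members were included, and 3 lay past the threshold as lower (SPL4, SPL9 and SPL13A) and 0 as higher. Of all tested loci 25.0% were called, 18.3% lower and 6.73% higher. The crosses did not overlap at 4 of the 10 members, with 3 lower and 1 higher, against 45.5% of tested loci (29.8% lower and 15.7% higher). SPL9 passed the level filter through the L x Cm libraries alone. Since members were chosen with this contrast known, these counts describe them and nothing is read from them. The median difference of the members was −0.28, and that of all tested loci was −0.22.

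SPL3, SPL4 and SPL5 encode the short proteins of the family, which promote flowering and floral identity genes. Among the 10 members SPL4 had the largest difference on this scale, though SPL9 exceeded it with a pseudocount of 0.1. Replicates 1 to 3 of Cm x L held 4.98, 4.55 and 4.26 RPKM of SPL4, and those of L x Cm held 24.3, 23.7 and 22.9 RPKM. Every Ler-mother library was thus about the same and well above every TEmob-mother library, with a ratio of means of 5.14. The log2 difference was −2.14 (SE 0.06 from the spread within crosses). Of 8662 tested loci with a mean of 5 to under 20 RPKM, 5.25% had a difference as low or lower. It ran from −2.34 to −1.94 over 13 alternative settings, including −2.10 without Cm x L replicate 3. The embryo list was split. Of its 11 markers 7 were called lower in Cm x L, among them STM (−2.91) and WOX9 (−2.51). The calls of CUC3, PLT1, PLT2 and DRN support nothing, as these passed the level filter only through L x Cm. LEC1 was called higher (1.46), and WOX8 and CUC1 had higher means in Cm x L without a call. Its sums were 146 to 330 RPKM in Cm x L, mostly from LEC1 and WOX8, and 167 to 185 in L x Cm. Of 7 pollen markers 3 were called lower, among them DUO1 with the same limit, and 0 higher. Of 8 endosperm markers 2 were called lower, among them MINI3 (−2.52), and 2 higher. The part of any of these tissues in the SPL4 difference was not tested. In RNA from whole nuclei preparations, fewer nuclei of a type and less RNA per nucleus cannot be told apart.

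SPL3 had 8.61, 11.9 and 5.89 RPKM in Cm x L and 9.44, 13.7 and 8.07 RPKM in L x Cm. The crosses overlapped, and replicate 2 was highest and replicate 3 lowest in each, with a log2 difference of −0.24 (SE 0.33). SPL3 cannot be separated from AT2G33815, a long noncoding RNA locus on the opposite strand that covers 97.3% of its exon bases. That locus had 8.56, 11.8 and 6.55 RPKM in Cm x L and 9.62, 14.1 and 7.49 RPKM in L x Cm, nearly the values of SPL3 in each library. Use of strand in counting is not given in the sources used here, and reads of the pair cannot be told apart.

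SPL5 had 2.14, 1.99 and 2.16 RPKM in Cm x L and 6.52, 1.23 and 0.368 RPKM in L x Cm. The 3 TEmob-mother libraries were alike, whereas the Ler-mother libraries lay on both sides of them. The log2 difference of 0.12 (SE 0.73) turned to −0.40 without L x Cm replicate 3 and to −0.05 without replicate 2. After quantile normalization it was 0.89. The protein-coding locus AT3G15260 on the opposite strand covers 25.5% of SPL5 exon bases and had 16.4 to 18.8 RPKM in Cm x L and 12.7 to 14.0 in L x Cm.

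SPL9 and SPL15 are close paralogs that promote the change from juvenile to adult leaves and the onset of flowering. SPL9 had 0.273, 0.565 and 0 RPKM in Cm x L and 4.21, 1.93 and 4.59 RPKM in L x Cm. These correspond to 12, 20 and 0 reads in Cm x L and to at least 63 reads in each L x Cm library, so SPL9 was close to the limit of detection in the TEmob-mother libraries and counted in each Ler-mother library. In Cm x L replicate 3, 3 reads on a locus of 1 kb would be 0.136 RPKM. The log2 difference was −1.81 (SE 0.35), and 15.8% of tested loci with a mean of 1 to under 5 RPKM had a difference as low or lower. After quantile normalization, which evens out the low end of the libraries, it was −0.64, and with a pseudocount of 0.1 it was −3.56.

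SPL15 had 3.70, 3.11 and 0.197 RPKM in Cm x L and 7.23, 4.32 and 3.08 RPKM in L x Cm. The lowest value, from 6 reads, came from Cm x L replicate 3, and the crosses overlapped. The log2 difference was −0.98 (SE 0.69) with all libraries, −0.36 without that replicate and −0.02 after quantile normalization. All exon bases of SPL15 lie within exons of AT3G57910 on the opposite strand, a protein-coding locus with 38.3, 27.9 and 12.1 RPKM in Cm x L and 39.9, 48.7 and 62.9 RPKM in L x Cm. Both loci were lowest in Cm x L replicate 3, but in L x Cm the replicate highest for SPL15 was lowest for AT3G57910.

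SPL2, SPL10 and SPL11 form another branch, known for shaping leaves formed at the change to flowering, and SPL10 and SPL11 are the members with a described function in the embryo. SPL10 had 21.5, 22.6 and 19.1 RPKM in Cm x L and 10.3, 15.8 and 14.4 RPKM in L x Cm. Each TEmob-mother library exceeded each Ler-mother library, the opposite direction to SPL4, SPL9 and SPL13A. The ratio of means was 1.56 and the log2 difference 0.62 (SE 0.19), with 12.7% of tested loci of 5 to under 20 RPKM as high or higher. It kept its sign in all 13 alternatives, between 0.45 and 0.74.

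SPL11, its closest relative and neighbour on chromosome 1, had 14.7, 15.6 and 14.6 RPKM in Cm x L and 15.2, 11.7 and 16.0 RPKM in L x Cm. The crosses overlapped and the log2 difference was 0.07 (SE 0.13). The ratio of SPL10 to SPL11 was 1.31 to 1.47 in Cm x L and 0.678 to 1.35 in L x Cm, ranges that overlap. SPL2 had 2.3, 6.0 and 3.82 RPKM in Cm x L and 2.95, 3.67 and 3.02 RPKM in L x Cm, with a log2 difference of 0.20 (SE 0.32), or 1.13 after quantile normalization. The spread of SPL2 was wider with the TEmob mother, where replicate 2 held 254 reads and replicate 1 held 121.

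SPL6, a member linked to immune responses in leaves, had 6.43, 9.02 and 7.45 RPKM in Cm x L and 10.4, 10.2 and 8.61 RPKM in L x Cm. Cm x L replicate 2 reached above L x Cm replicate 3, and the log2 difference was −0.32 (SE 0.15), or −0.09 after quantile normalization.

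SPL13 exists as 2 gene copies, SPL13A and SPL13B, and acts in the passage from the cotyledon stage to leaf production. All 2335 windows of 50 bases in the exons of SPL13A occur at least once more in the genome, as do all 1977 of SPL13B, whereas SPL3, SPL4, SPL5, SPL9, SPL15, SPL2, SPL10, SPL11 and SPL6 share 0. How reads matching both copies were assigned is not given in the sources used here, so the copies cannot be told apart. SPL13A had 1.03, 1.80 and 0.615 RPKM in Cm x L and 4.99, 3.97 and 4.62 RPKM in L x Cm. SPL13B had 1.01, 1.39 and 0.422 RPKM in Cm x L and 6.11, 4.34 and 5.45 RPKM in L x Cm. Both copies were lower in every TEmob-mother library, in the same order of libraries within each cross. The log2 difference of SPL13A was −1.40 (SE 0.24), and 34.0% of tested loci with a mean of 1 to under 5 RPKM had one as low or lower. It was −0.29 after quantile normalization and −1.21 without Cm x L replicate 3.

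**Figure D3:**
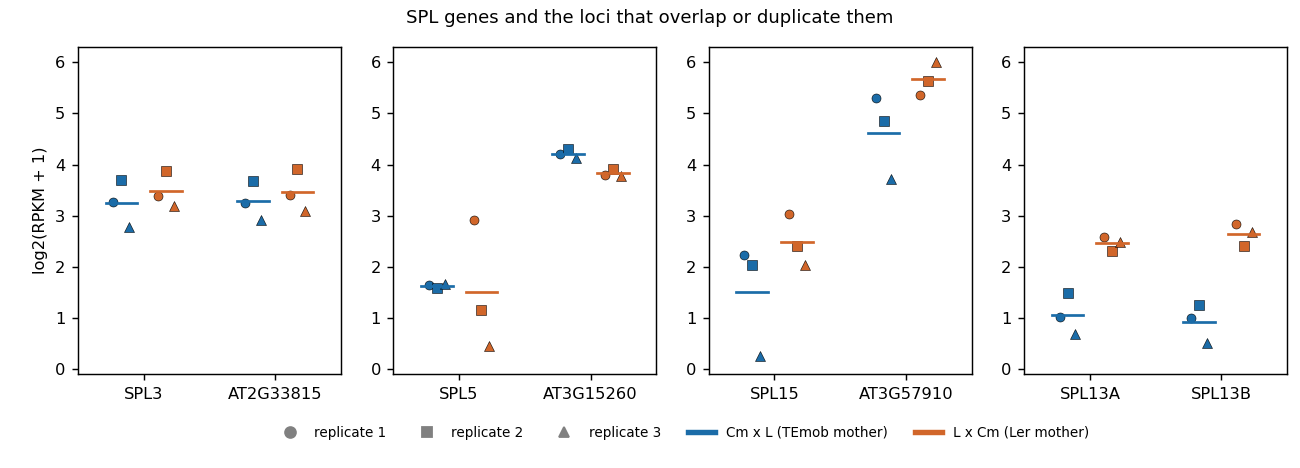
Levels as log2(RPKM + 1) in each library for SPL3, SPL5 and SPL15 beside the locus on the opposite strand, and for SPL13A beside its copy SPL13B, with colours for the cross, symbols for replicates and lines at means. SPL3 and AT2G33815 have nearly equal values in every library, SPL13A and SPL13B follow the same order of libraries within each cross, and SPL5 and SPL15 lie below their partners in all 6 libraries.

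Set against loci of like level, SPL4 lay farthest from the median. The tested loci of 1 to under 5 RPKM, where SPL5, SPL9, SPL15, SPL2 and SPL13A lie, had a median log2 difference of −1.12 with quartiles of −1.59 and −0.46. SPL9 fell below that range, SPL13A and SPL15 within it and SPL5 and SPL2 above it. Loci of 5 to under 20 RPKM had a median of −0.05 with quartiles of −0.59 and 0.35. SPL3, SPL6 and SPL11 fell within it, SPL10 above it and SPL4 below it.

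**Figure D4:**
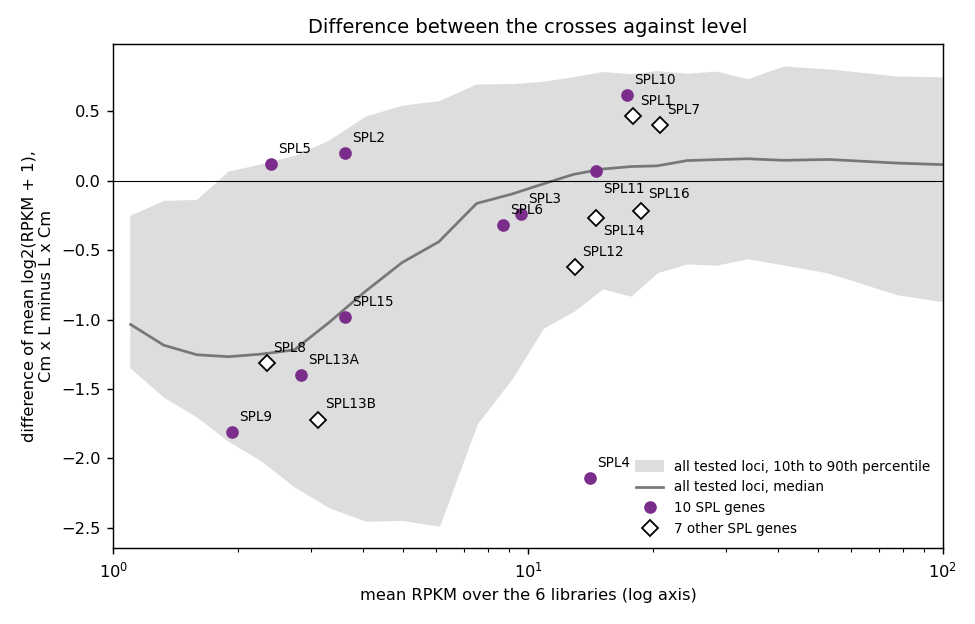
Difference of mean log2(RPKM + 1), Cm x L minus L x Cm, against the mean RPKM over the 6 libraries on a log axis, for the 10 SPL genes (filled) and the 7 others (open), with the median (line) and the 10th to 90th percentile (band) of all tested loci in 24 classes of level. The band lies mostly below 0 at low levels, and SPL4 at −2.14 lies below it.

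Genes of the family outside the miR156 branch, and the SPL13B copy, were tested in the same fit. Among these 7 genes 1 was called, SPL13B (log2 difference −1.72, SE 0.34, limma adjusted p = 0.014). Of all tested loci 18.3% were called lower, and of those of 1 to under 5 RPKM, the class of SPL13B, 33.2%. Reads of SPL13B cannot be told apart from those of SPL13A, so it is not taken as independent of SPL13A. SPL13B averaged under 1 RPKM in Cm x L, so it passed the level filter only through L x Cm. Without Cm x L replicate 1 that call was lost, and after quantile normalization it was −0.69 (adjusted p = 0.14). The 6 genes without a miR156 site had adjusted p-values of 0.067 to 0.56. SPL8, needed for pollen sac formation, had 0.392, 0.973 and 1.06 RPKM in Cm x L and 7.15, 2.14 and 2.35 in L x Cm (−1.31, SE 0.45, limma adjusted p = 0.067). SPL12 had 7.26, 10.6 and 12.5 RPKM in Cm x L and 19.8, 13.7 and 14.2 in L x Cm (−0.62, SE 0.25, limma adjusted p = 0.11). SPL8 averaged under 1 RPKM in Cm x L, so it too passed the level filter only through L x Cm. In SPL8 and SPL12 every Ler-mother library was above every TEmob-mother library. This held for 51.9% of tested loci of 1 to under 5 RPKM, the class of SPL8. In the class of SPL12, 5 to under 20 RPKM, the share was 22.8%.

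SPL1, which with SPL12 protects flowers from heat, had 18.9, 19.7 and 24.5 RPKM in Cm x L and 15.5, 13.7 and 15.3 in L x Cm (0.47, SE 0.18, limma adjusted p = 0.085). SPL7, the regulator of copper uptake, had 20.0, 22.4 and 29.1 RPKM in Cm x L and 18.1, 15.5 and 19.5 in L x Cm (0.40, SE 0.20, limma adjusted p = 0.16). Both were higher in every TEmob-mother library, as were 16.8% of tested loci of 5 to under 20 RPKM (the class of SPL1). In the class of SPL7, at least 20 RPKM, the share was 29.6%. SPL14 (12.5 to 13.3 and 11.4 to 19.6 RPKM) and SPL16 (10.8 to 21.7 and 18.1 to 22.5 RPKM) overlapped between crosses.

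Precursor loci of the microRNA were scarcely detected. The libraries hold poly(A) RNA, so mature miR156 and miR172 were not measured. Of 12 MIR156 and MIR157 loci 5 had a mean of at least 1 RPKM, and 1 of these was called lower, beside 18.3% of all tested loci. MIR156E had 0, 0.442 and 0 RPKM in Cm x L and 7.27, 4.32 and 2.95 RPKM in L x Cm (−2.3, SE 0.40, limma adjusted p = 0.010), which correspond to 0, 1 and 0 reads and to 19, 9 and 6 reads. MIR156E passed the level filter only through L x Cm, where it is high, so a difference was built into its selection and the call supports nothing. MIR156C, the locus of the list detected in all 6 libraries, had 0.316 to 6.71 RPKM in Cm x L and 2.37 to 7.51 in L x Cm (limma adjusted p = 0.55). MIR157A was at 0 in 5 libraries and at 15.5 RPKM in L x Cm replicate 3, and MIR156F had 12.3 and 1.02 RPKM in L x Cm replicates 1 and 2 and 0 elsewhere. MIR156D was listed at 0 throughout. Mature miR156 cannot be read from these loci.

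Of 5 MIR172 loci 1 was tested, MIR172D, and it was lower in Cm x L (0, 0.684 and 0 RPKM, from 0, 2 and 0 reads) than in L x Cm (4.74, 2.60 and 1.90 RPKM, from 16, 7 and 5 reads), with a log2 difference of −1.72 (SE 0.42, limma adjusted p = 0.025). MIR172D too passed the level filter only through L x Cm, and its call supports nothing. It held in 2 of the 6 fits that leave out 1 library.

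Of 6 genes of the AP2-like family targeted by miR172, 5 were called lower in Cm x L and 0 higher, beside 18.3% of all tested loci called lower. Their median log2 difference was −1.20, and that of all tested loci was −0.22. Only AP2, TOE3 and TOE2 averaged 1 RPKM or more in both crosses, and of these AP2 and TOE3 were called. For AP2 the class of loci of like level, 5 to under 20 RPKM, had 13.4% called lower, and for TOE3, in the class of at least 20 RPKM, the share was 6.70%. TOE3 had 12.7, 13.0 and 14.9 RPKM in Cm x L and 34.4, 26.6 and 24.9 in L x Cm (−1.01, SE 0.19, limma adjusted p = 0.011). AP2, a regulator of flower organs and of seed size, had 9.90, 14.2 and 8.73 RPKM in Cm x L and 18.2, 18.8 and 18.5 in L x Cm (−0.73, SE 0.21, limma adjusted p = 0.042). TOE1, SMZ and SNZ, repressors of flowering, stayed at or below 1.02 RPKM in Cm x L and lay between 1.80 and 9.75 RPKM in L x Cm (limma adjusted p = 0.012, 0.042 and 0.018). Their means lay between 1 and 5 RPKM, the class of loci in which 33.2% were called lower. They passed the level filter only through L x Cm, so their 3 calls support nothing.

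TOE2 did not pass (27.5 ± 3.21 RPKM in Cm x L, −0.08, SE 0.18, limma adjusted p = 0.77). The call of TOE3 held in the 6 fits that leave out 1 library, those of TOE1 and SNZ in 5, that of SMZ in 2 and that of AP2 in 1. After quantile normalization TOE3 kept its call (adjusted p = 0.017) and AP2, TOE1, SNZ and SMZ did not (0.054, 0.070, 0.10 and 0.71).

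Of 9 genes described as SPL targets or partners in flowering and trichome formation, 7 were tested and 1 was called lower, beside 18.3% of all tested loci and 33.2% of those of 1 to under 5 RPKM. The median was −0.68. LFY, the floral meristem identity gene, had 0.379, 0.772 and 0 RPKM in Cm x L and 8.88, 1.90 and 5.00 RPKM in L x Cm (−2.04, SE 0.50, limma adjusted p = 0.025), a call that held in 3 of the 6 fits that leave out 1 library. It passed the level filter only through L x Cm, so the call supports nothing. FT, the mobile flowering signal, was the gene of this list with the highest level, at 12.7, 18.9 and 13.1 RPKM in Cm x L and 14.4, 29.6 and 32.6 in L x Cm (−0.68, SE 0.32, limma adjusted p = 0.15). It was called without L x Cm replicate 1 (adjusted p = 0.044). SOC1 (1.01 to 1.45 and 1.54 to 5.88 RPKM, adjusted p = 0.11 by limma, and 0.026 without L x Cm replicate 3) and FUL (1.94 to 2.44 and 2.13 to 5.21 RPKM, adjusted p = 0.42 by limma) did not pass. AP1 and TCL1 were below the level filter.

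From the machinery that makes and uses plant microRNAs, 9 genes were tested, of which 2 were called higher and 0 lower in Cm x L, at a median of 0.29. Of all tested loci 6.73% were called higher, and of those of at least 20 RPKM 14.1%. AGO1, the effector Argonaute of miR156, had 48.5, 46.0 and 44.8 RPKM in Cm x L and 27.2, 30.0 and 32.0 in L x Cm (0.63, SE 0.14, limma adjusted p = 0.021). SQN, a cyclophilin that aids AGO1 activity, had 17.1, 19.6 and 22.6 RPKM in Cm x L and 10.9, 8.65 and 9.60 in L x Cm (0.95, SE 0.19, limma adjusted p = 0.015). The call of SQN was lost without L x Cm replicate 2, and that of AGO1 held in 2 of the 6 fits that leave out 1 library. CBP20, SE and HYL1, the most abundant of the rest, had adjusted p-values of 0.25, 0.23 and 0.87 by limma. The processing enzyme DCL1 was alike in both crosses within its spread (21.2 to 27.2 and 19.5 to 25.4 RPKM).

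**Figure D5:**
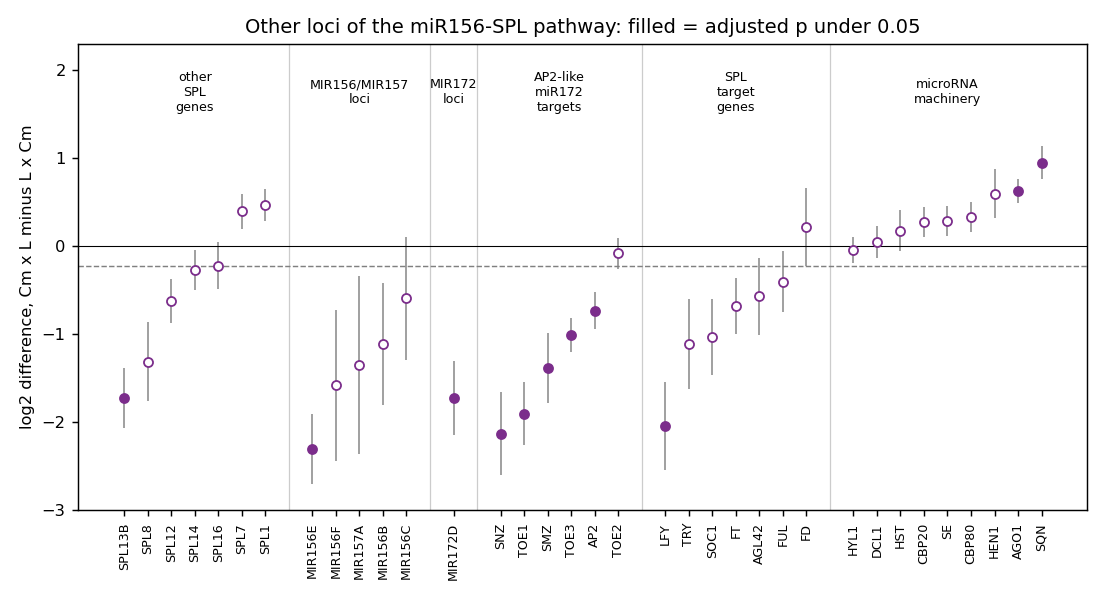
Log2 difference, Cm x L minus L x Cm, with limma's standard error, for the tested loci of 6 lists around the 10 SPL genes, where filled points have an adjusted p under 0.05 and the dashed line marks the median of all tested loci at −0.22. The AP2-like genes other than TOE2 lie between −2.13 and −0.73, and AGO1 and SQN lie above 0.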

How the data were processed

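Poly(A) RNA from INTACT-purified endosperm nuclei was sequenced in 6 libraries, 3 per direction of cross. Per the labels' protocols, RNA was extracted with the mirVana kit and libraries were built with an NEBNext Ultra II RNA kit. The submitters' processing notes name TopHat2 2.1.0 and TAIR10. No source used here states the counting tool or its use of strand. The authors deposited RPKM, in which each gene's reads are divided by its length and by the size of the library. Columns were matched to samples by parent order and replicate number, and 0 value columns were left out.

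A pseudocount of 1 was added to each RPKM before taking log2. Loci averaging 1 RPKM or more were compared between crosses by limma (version 3.58.1, R 4.3.3; moderated test, intensity trend, 2-sided, direction as the only term, Benjamini-Hochberg adjustment at 0.05). A permutation test of 3 against 3 libraries cannot go below 0.1. The method was tested on simulated data. Library totals, and the reads behind some values, were recovered from the steps in RPKM, using pseudogene lengths: 583 to 1879 pseudogenes with few reads per library came out whole within 0.02 reads in 99.5% to 99.8% of cases, a share the step was chosen for. Reads of a gene are given where 1 length made all 6 values whole within 0.1 reads and no other length within 0.12. Lengths next to the best were left out of that comparison. Such totals limit counting error only.

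Names, exons and sequences came from RefSeq TAIR10.1, to which 32835 of 33602 loci matched. Members and lists were chosen with earlier results of these data known. All members and other SPL genes are named, and of other lists the called loci and up to 3 further loci of highest level. MIR156D, AP1, TCL1 and DCL1, and the markers at 0, were added after their values were seen. Alternatives were another pseudocount, other level filters, other scalings, no trend, a replicate block and leaving out each library. Other steps ran in Python 3.11.15 (numpy 2.4.6, pandas 2.3.3) and plots in matplotlib 3.10.9.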

Additional observations from a re-analysis of the deposited data

How the results depend on the processing

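Of the 10 members, SPL4, SPL9, SPL13A, SPL15, SPL3, SPL6 and SPL10 kept the sign of their difference in every alternative run for them. For SPL3 and SPL15 the sign says little, since their differences shrank to −0.01 and −0.02. With 1 library left out, SPL5 ran from −0.40 to 0.82 (−0.05 without L x Cm replicate 2), SPL2 from −0.07 (without Cm x L replicate 2) to 0.47 and SPL11 from −0.06 (without L x Cm replicate 2) to 0.15. After quantile normalization SPL5 was at 0.89 and SPL2 at 1.13, both above these ranges, and SPL11 at 0.08. As a description only, since the members were chosen on this contrast, SPL9 and SPL13A no longer lay past the threshold after quantile normalization and without replicate 1 of either cross, nor SPL13A without L x Cm replicate 2. At a mean of at least 5 RPKM neither was included. With libraries scaled by median of ratios over loci above 0 in every library, SPL10 also lay past the threshold, as higher. Of all tested loci, 1792 were called higher and 4870 lower. Leaving out 1 library gave 359 to 2280 higher and 1243 to 5231 lower. Restricting the fit to loci averaging 5 RPKM or more gave 1322 lower, and quantile normalization gave 1739. Lower calls were 73.1% of calls without that normalization, 45.7% with it and 49.0% at 5 RPKM or more. Quantile normalization shifted the overall median from −0.22 to 0.04. Outside the members, 2 loci of the miR156 pathway lists were higher and 9 lower. Leaving out 1 library gave 0 to 2 higher and 2 to 9 lower, a mean of at least 5 RPKM left 1 lower (fewer loci were tested) and quantile normalization 2. Same-numbered libraries of the crosses deviated together with correlations of 0.0807, 0.146 and 0.204, and 2 of 3 pairs were over 0.1. Deviations from a cross mean are not independent of each other, so these values do not settle whether the numbers mark pairs. The main fit did not take them as pairs. As a hint from the data, 5 of 6 libraries correlated best with their own number. With replicate number as a block, 1963 loci were higher and 4887 lower, with 3 members past the threshold as before. The causes of these shifts were not tested. Few reads lay behind SPL9, SPL15, SPL13A and SPL13B in Cm x L replicate 3 (0, 6, 25 and 14 reads). MIR156E and MIR172D had 0 to 2 reads in each Cm x L library. The total of Cm x L replicate 3, 22.1 M reads, was above those of L x Cm replicates 2 and 3 (21.7 M and 21.2 M).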
